A study of Mus musculus with 2 samples.

Results

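Cytosolic ribosomal proteins are the proteins that, with ribosomal RNA, build the large and small subunits of the ribosome outside mitochondria. Their genes were taken by name from the array's own gene names, as every Rpl or Rps symbol followed by a number, with the stalk genes Rplp0, Rplp1 and Rplp2 and with Rpsa, leaving out the kinases named Rps6k. The rule found 82 genes with 185 probes, of 30165 genes with 39429 probes on the array, and 50 of them belong to the large subunit and 32 to the small one. Of the 82, 76 are core members and 6 are copies of a core gene (Rpl3l, Rpl10l, Rpl36al, Rpl39l, Rps27l and Rps4y2, which RefSeq now calls Rps4l). The rule used no measured value.

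Each ribosome carries most of these proteins once, so a cell makes their mRNAs in similar proportions and in large amounts. Many of the mRNAs begin with a C and a run of pyrimidines, the 5′ terminal oligopyrimidine (TOP) tract, through which mTOR and the RNA-binding protein LARP1 set their translation, while MYC is known to raise their transcription. Blood-forming cells are sensitive to the supply of ribosomal proteins: loss of 1 copy of any of several of them causes Diamond-Blackfan anaemia, a failure of red cell production.

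The samples were 2 cultures of bone marrow mononuclear cells, the mixed blood-forming and immune cells of marrow with a single nucleus, flushed from the femurs of C57BL/6 mice aged 2 to 4 months. The control culture was untreated, and the other received ninjin'yoeito (NYT), a herbal drug of Japanese Kampo medicine. Both were collected at day 11, and the RNA of each was labelled with Cy3 and hybridised to 1 one-colour array. The comparison asks how the treated culture differed from the untreated one. The medium used at harvest held 2% fetal bovine serum. The sources used here give neither the dose nor whether the cultures shared animals. The labels and the design text disagree on the RNA extraction kit, which is therefore not settled here.

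With 1 array a group there was no test, and no value below has a replicate check. A value called a difference is log2 processed intensity, NYT minus control, after each array's 75th percentile was subtracted, so 1 is 2-fold. Paired intensities are given unscaled, the control first and NYT second. That percentile was 1475 for the control and 728 for NYT, a gap of 1.02 on the log2 scale. Of the array's probes, 24507 were well above background for the control and 22760 for NYT, and no spot was saturated. The scanner software's own error model gave a median error of 0.20 for a member's difference, and about 0.29 for the gap between 2 members. Every core member had the same 0.20, so it is a term of the model and not a spread measured for each gene. The spread of 247 probes printed 10 times gave a median SD of 0.05 for a difference. Both errors cover the spots only, neither the cultures nor the labelling.

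Of the 82 genes, 80 were well above background on both arrays, 48 of the large subunit and 32 of the small, and these included all 76 core members. Their processed intensities had a median of 110812 for the control and 88591 for NYT. Before scaling, 76 of the 80 were dimmer on the NYT array, and 4 were brighter (Rps15a, Rplp1, Rpl38 and Rpl36al). After scaling to the 75th percentile the median difference was 0.65, above 0 in 79 of 80 genes, while with no scaling it was -0.37 and with spike-in scaling -0.53. The median of all 16996 genes measured was 0.29, and 64.4% of them were above 0. In bulk samples like these, fewer cells of a type and less RNA per cell cannot be told apart.

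**Figure D1:**
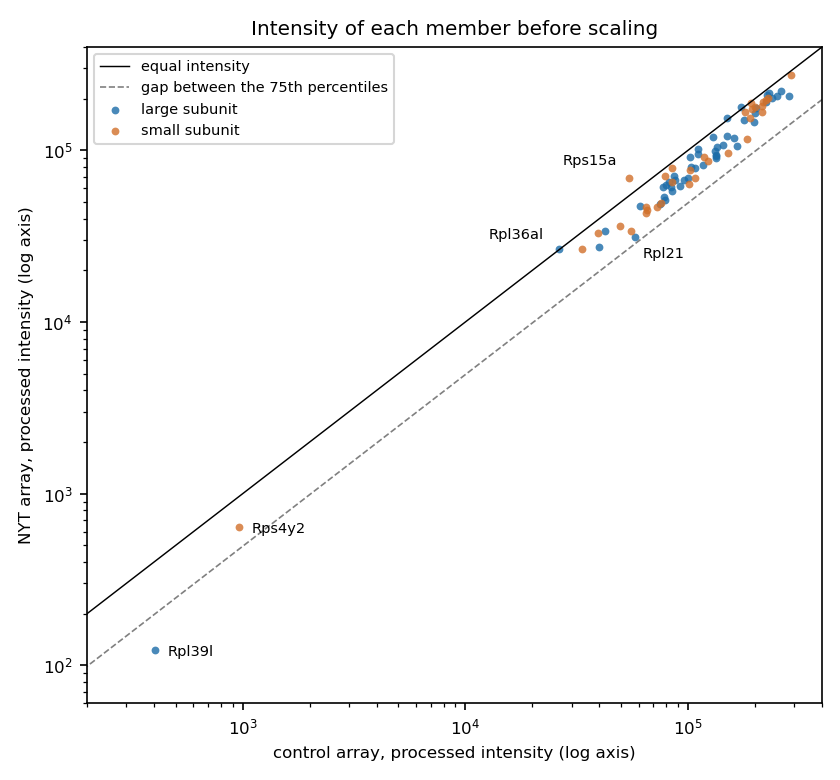
Processed intensity of the 80 measured members on the control array (horizontal, log axis) and the NYT array (vertical, log axis), 1 point a gene, coloured by subunit. Most points lie between the solid line of equal intensity and the dashed line of the gap between the 75th percentiles, with Rps15a above the first and the dim copy Rpl39l below the second.

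At 2-fold, 5 of the 80 genes were higher on the NYT array, against 11.2% of all genes measured, and 0 were lower, against 11.0%. They included Rps15a, Rplp1, Rpl38 and Rpl36al; under quantile normalization, loess, no scaling, spike-in scaling and in the authors' value table, 0 were 2-fold higher. At 1.5-fold, 47 were higher, against 30.4% of all genes, and 1 was lower, against 16.9%. The members thus lay close together: the span between the quartiles of the 76 core genes was 0.30 on the log2 scale, from 0.49 to 0.80, and that of all genes was 0.96. Under the other scalings, background correction, filters and probe choices tried, the core span ranged from 0.18 to 0.39 and the span of all genes from 0.83 to 1.06.

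**Figure D2:**
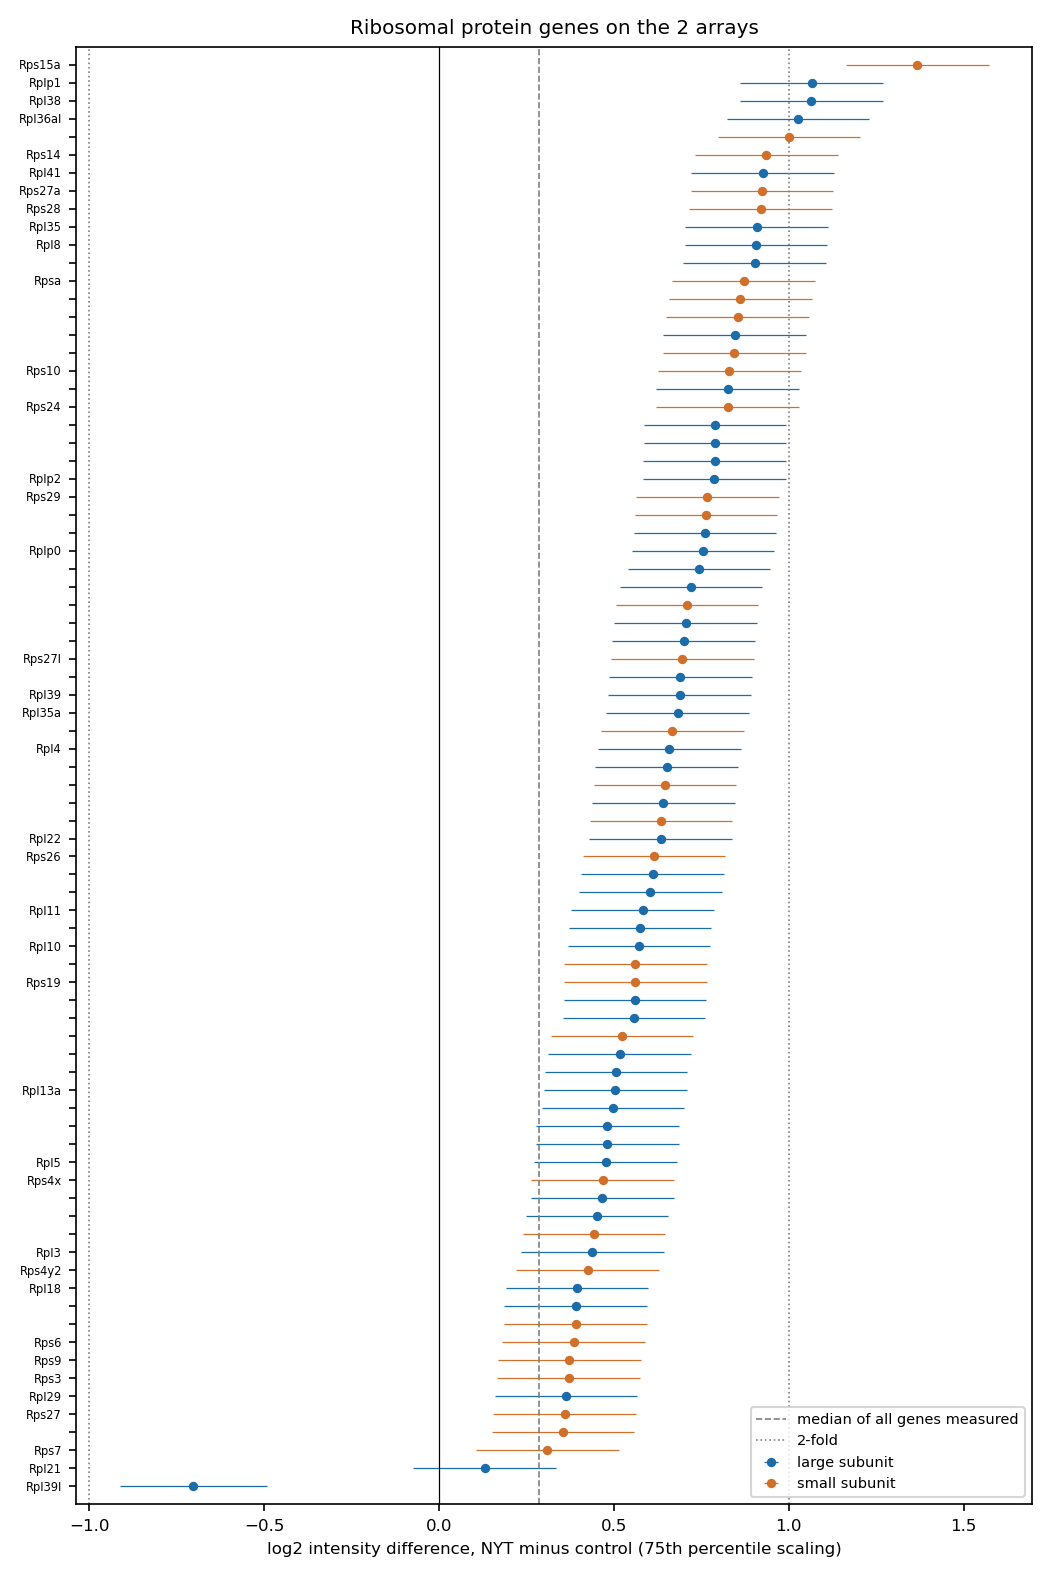
Difference in log2 intensity (NYT minus control, 75th percentile scaling) of each measured member, in order, coloured by subunit, with names beside the members chosen to be named; bars are the scanner software's error for 1 probe, not a replicate error. Core members run from 0.13 (Rpl21) to 1.37 (Rps15a), and the copy Rpl39l is the 1 member below 0.

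The level of the whole family against other genes depended on how the arrays were scaled. Any constant factor per array leaves the family's median 0.36 above that of all genes, as with no scaling, spike-in or median scaling. Quantile normalization gave a family median of 0.05 against 0.20 for all genes, and the authors' value table the same 0.05 against 0.20, so the order turned. Loess between the arrays, which removes a trend with intensity, gave 0.05 against -0.02. The members are among the bright genes of the array. Over the 80 members, the difference followed the mean intensity with a Spearman correlation of 0.49, and of 0.22 after loess; the points share both arrays, and the values describe this pair of arrays only. The 48 members with a control intensity of at least 100000 had a median difference of 0.73, and the 32 below it 0.56. All genes with a control intensity of at least 10000 (3107 genes) had a median of 0.40. What part the trend with intensity plays in the family's median was not tested.

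**Figure D3:**
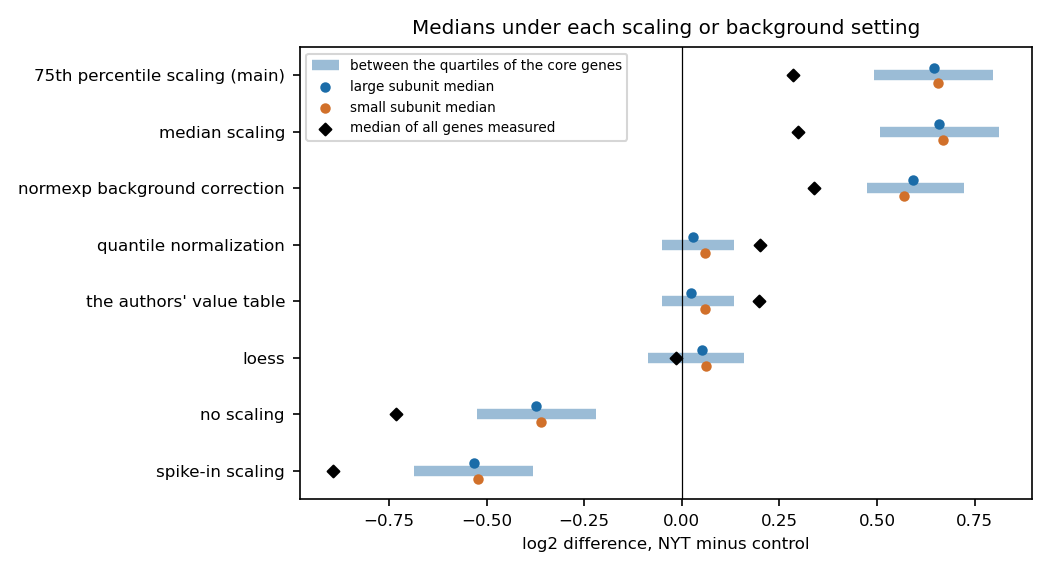
Median log2 difference (NYT minus control) of large subunit, small subunit and all genes measured under each scaling or background setting, with a bar between the quartiles of the core members. The subunit medians lie side by side in every setting drawn, between -0.53 and 0.67, while their position against 0 and against all genes shifts with the setting.

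As a share of the summed intensity of all genes measured, with 1 probe a gene, the 80 members made up 5.84% for the control and 6.99% for NYT. Summed over 184 of their probes and 39421 probes in all, the shares were 8.51% and 9.86%. These shares do not depend on a constant scaling factor. They are shares of fluorescence, in which each probe has its own efficiency, and not shares of mRNA molecules.

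The large and small subunits had nearly equal medians. The median difference was 0.65 for the 48 large subunit genes and 0.66 for the 32 small subunit genes, a gap of -0.01. The span between the quartiles was 0.29 in the large subunit and 0.41 in the small. Under the other scalings both medians moved together, from -0.53 and -0.52 with spike-in scaling to 0.66 and 0.67 with median scaling, and with the faintest measured probe of each gene they were 0.47 and 0.56. At 1.5-fold, 28 of 48 large subunit genes and 19 of 32 small subunit genes were higher on the NYT array, against 30.4% of all genes measured.

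The P stalk, the flexible arm of the large subunit that recruits the elongation factors, is formed by Rplp0 with Rplp1 and Rplp2. Rplp1 had an intensity of 149852 for the control and 154787 for NYT, a difference of 1.06, and was 1 of the 4 members brighter before scaling. Rplp0 had intensities of 250005 and 208235, a difference of 0.75. Rplp2 had 238057 and 202816, a difference of 0.79. The 3 stalk genes were all above the family's median, with a median of 0.79, but Rplp0 and Rplp2 by less than the error of 1 difference. Other measured probes of Rplp0 gave 0.63 and 0.80, while Rplp1 and Rplp2 had 1 probe each. After loess Rplp1 remained above Rplp0 and Rplp2 by their brightest probes, at 0.42 against 0.07 and 0.10.

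The peptidyl transferase centre, where peptide bonds form, and the tunnel through which the new chain leaves are framed by large subunit proteins. The 11 genes listed for them had a median of 0.66, from 0.44 to 0.91. Rpl3, which reaches towards the catalytic centre, had intensities of 92364 and 61806 and a difference of 0.44, among the 5 lowest of the large subunit. That probe was placed on chromosome 5, and its other probe, on the gene's chromosome 15, had 79649 and 43894, a difference of 0.16. Rpl4, which lines the narrow part of the tunnel, had 61052 and 47561, a difference of 0.66. Rpl10, added late in assembly near the same centre, had 283991 and 208352, a difference of 0.57. By their brightest probes these 3 lay within the error of a gap between 2 members.

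At the mouth of the tunnel, Rpl39 had intensities of 77050 and 61291, a difference of 0.69, and Rpl35 had 226193 and 209593, a difference of 0.91. Rpl35 is among the 5 highest core members of the large subunit. Rpl8, which sits at the heart of the large subunit, had 128957 and 119327, a difference of 0.91, and Rpl41, the shortest protein of the ribosome, had 230523 and 216078, a difference of 0.92. By their brightest probes all of these were dimmer on the NYT array before scaling, by less than the family as a whole. The other measured probe of Rpl8 had 57156 and 38682, a difference of 0.45, below the family's median. Those of Rpl39 gave 0.57 and 0.85.

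Rpl38, needed for the translation of certain Hox mRNAs in the mouse embryo, had intensities of 172880 and 178483, a difference of 1.06. Its other probe, placed on another chromosome, gave 164827 and 163898 and a difference of 1.01. Both probes were thus near 2-fold, and with loess the first gave 0.40 and the second 0.36. They share a run of 53 bases, so the second is not an independent reading.

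Rpl5 and Rpl11 enter the large subunit together with 5S ribosomal RNA, and when assembly stalls they can bind Mdm2, the ligase that marks p53 for breakdown. Rpl5 had intensities of 39742 and 27305, a difference of 0.48, and Rpl11 had 197908 and 146269, a difference of 0.58. Both lay below the family's median of 0.65 by less than the error of 1 difference. In the list of p53 and its targets, 10 of 10 genes were measured, with a median of 0.32, and 0 were past 2-fold in either direction. Mdm2 had a difference of 0.85, Trp53 of 0.11 and Cdkn1a, the cell cycle inhibitor p21, of 0.56.

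Other large subunit genes chosen for their roles were close to the family's median. Rpl13a, which interferon-gamma can release from the ribosome as part of a translation inhibitor, had intensities of 96447 and 67507, a difference of 0.50. Rpl35a, a Diamond-Blackfan gene, had 79711 and 63154, a difference of 0.68. Rpl22, which early T cells depend on, had 87826 and 67251, a difference of 0.63. By their brightest probes none of the 3 departed from the median of 0.65 by more than its error. The other measured probe of Rpl22, at 3274 and 1910, gave a lower difference of 0.24.

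The lowest core members of the large subunit included Rpl21, Rpl29, Rpl18 and Rpl3. Rpl21 fell furthest behind, with intensities of 57531 and 31100 and a difference of 0.13, below the median of all genes measured. It was the 1 core member below that median under 75th percentile scaling. Rpl29 had 165982 and 105361, a difference of 0.36. Rpl18 had 78958 and 51244, a difference of 0.39. Neighbours in this order, Rpl21 and Rpl29 included, differed by less than the error of a gap, 0.29.

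In the small subunit, Rps15a stood at the top. It had intensities of 54471 and 69374, a difference of 1.37 or 2.58-fold, and after loess 0.81. Its second measured probe went the other way before scaling, with 63156 and 49190 and a difference of 0.66, near the family's median. The gene's position at the top therefore rests on 1 of these probes, and the mean over both was 1.01.

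Rps14, whose loss in the 5q deletion of human myelodysplasia impairs red cell production, had intensities of 289229 and 273204, a difference of 0.94. Rps27a, made as a fusion with ubiquitin, had 84753 and 79358, a difference of 0.92, and Rps28 had 179529 and 167619, also 0.92. These were among the 5 highest core members of the small subunit, and apart from Rps15a they lay within 0.29 of each other.

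The mRNA path and decoding site of the small subunit is formed by Rps2, Rps3, Rps9, Rps15, Rps18, Rps23 and others, of which 7 had a probe by name (none is called Rps23 in the array's gene names). Their median was 0.56, from 0.37 to 0.87. Rps3, at the entry of the mRNA channel, had intensities of 72890 and 46539 and a difference of 0.37. Rps9, whose bacterial counterpart bears on the accuracy of decoding, had 151528 and 96846, also 0.37. Rpsa, at the exit side and mutated in people born without a spleen, had 193945 and 175113, a difference of 0.87, and its other 3 probes gave 0.63, 0.71 and 0.72.

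Rps10, beside the mRNA entry, had intensities of 224138 and 196773, a difference of 0.83. Rps4x, the X-linked member of its family, had 65451 and 44686, a difference of 0.47, from a probe placed on chromosome 5; its other probe, on chromosome 3, gave 0.28. Rps6, the protein that S6 kinases phosphorylate downstream of mTOR, had 107159 and 69097, a difference of 0.39. Of these, Rps10 was above the family's median and the other two below it.

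The lowest core members of the small subunit included Rps7, Rps27, Rps3 and Rps9. Rps7 had intensities of 55237 and 33793, a difference of 0.31. Rps27 had 184933 and 117125, a difference of 0.36. These 4 differed from each other by less than the error of 1 difference, 0.20, so their order is not resolved.

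Diamond-Blackfan genes were not set apart from the family. The 19 listed genes were all measured, with a median of 0.68 and a range from 0.31 (Rps7) to 1.37 (Rps15a), and 11 of them were at least 1.5-fold higher on the NYT array, against 30.4% of all genes measured. Rps19, the gene most often mutated in the disease, had intensities of 49425 and 36005, a difference of 0.56. Rps26 had 101827 and 76974, a difference of 0.61. Rps24 had 217801 and 190531, a difference of 0.83, and Rps29 had 214425 and 180169, a difference of 0.77. With no scaling the direction of all but Rps15a turns, as it does for the family.

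The copies of core genes were less uniform. Rpl39l, a copy of Rpl39 best known from the testis, had an intensity of 403 for the control and 122 for NYT, a difference of -0.70, and it was below 0 in every setting tried. Rpl39 itself was at 0.69, so the copy lay -1.39 from its parent, with a scanner error of 0.29 on that gap. Under quantile normalization the gap was -0.72, after loess -1.0, with normexp -0.92 and in the authors' value table -0.72. The longest run of bases that the 2 probes share is 5; whether each reads its own gene alone was not tested. The first 30 bases of each 60-base probe were as follows (mm9 coordinates of the whole probe).
Rpl39 (chrX:34622618-34622677): gactgaggatttatactgaattgtcatcaa
Rpl39l (chr16:10174657-10174716): ctgtgctttagtgagttcattcagcagttc

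Rpl36al had intensities of 26456 and 26609, a difference of 1.03, against 0.70 for its relative Rpl36a. Other measured probes of Rpl36a gave 0.63 and 1.02, the latter (21671 and 21687) level with Rpl36al. Rps27l, a p53-induced copy, had 33306 and 26633, a difference of 0.70, against 0.36 for Rps27. By the brightest probes both gaps, 0.33 and 0.34, were little above their error of 0.29. With normexp the gap of Rps27l shrank to 0.16, and under quantile normalization it grew to 0.58.

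Rps4y2 had intensities of 963 and 639, a difference of 0.43, and lay -0.04 from Rps4x. Under quantile normalization that gap was 0.47. Rpl10l, a copy of Rpl10 active in male germ cells, was not well above background in either culture. Rpl3l, the copy of Rpl3 made in heart and skeletal muscle, was well above background on the control array only, at 36.5 against 20.3, too dim for a fold. So of the tissue-restricted copies, those of muscle and male germ cells were at or near background, with Rpl39l dim.

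A pair of further copies have names outside the rule and were looked at beside them. Rpl22l1, which can replace Rpl22 in the ribosome, had intensities of 23180 and 9898, a difference of -0.21, and lay -0.84 from Rpl22. That gap was -0.61 under quantile normalization, -0.69 after loess and -0.87 with normexp, so it was below 0 in each. It rests on the brightest probe of Rpl22, whose other measured probe had a difference of 0.24, nearer to Rpl22l1. Rpl7l1 had 580 and 404, a difference of 0.50, and lay -0.01 from Rpl7, but 0.61 above it under quantile normalization.

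Several probes read most of these genes, which gave a second view of the error. Of the 80 members, 54 had at least 2 measured probes (152 probes), and the pooled SD of differences within a gene was 0.19, against an SD of 0.21 over the 76 core members. The 2 values were close, but the first takes in dim probes and the second only the brightest probe of each gene. Over all 178 measured probes, 176 had a difference above 0 after 75th percentile scaling, and 171 were dimmer on the NYT array before it. Probes of a gene differed by more than 0.5 in 4 members and by more than 1 in 1, Rps3.

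**Figure D4:**
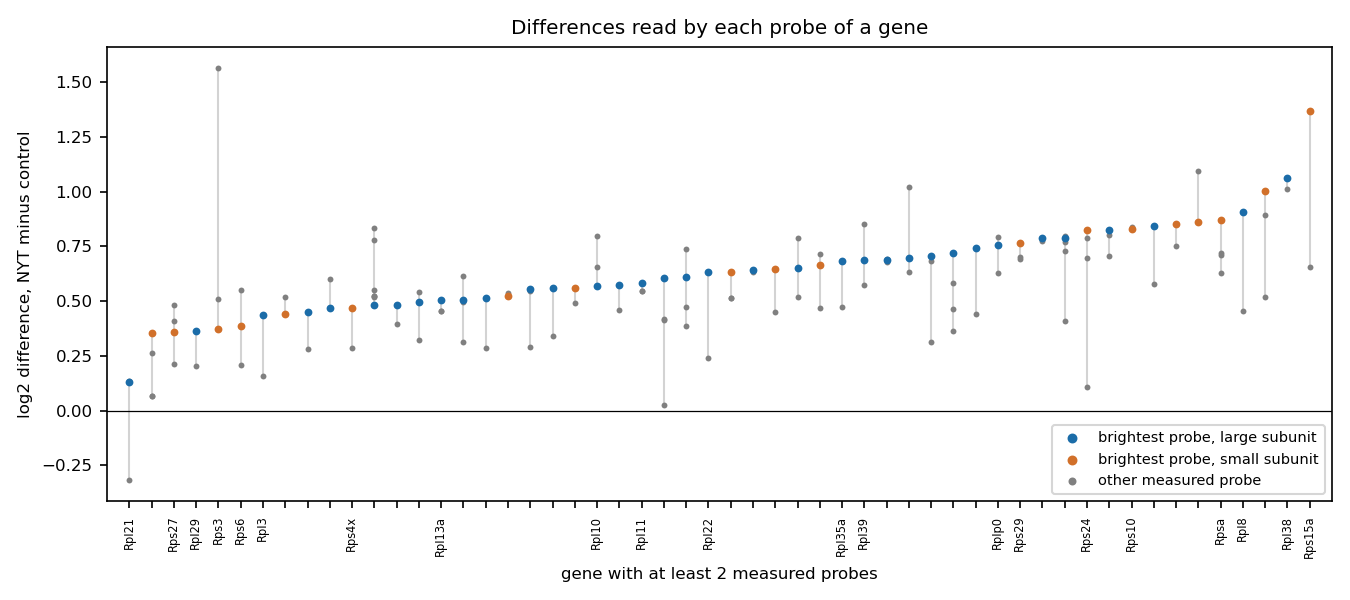
Log2 difference (NYT minus control, 75th percentile scaling) of every measured probe of the members with at least 2 measured probes, with the brightest probe coloured by subunit and the others grey; names stand under the members chosen to be named. Most probes of a gene lie within 0.5 of each other; probes of Rps3 at 1.57 and of Rpl21 at -0.32 stand apart.

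Rps3 was read by 3 probes, at 0.37, 0.51 and 1.57. The last had intensities of 2401 and 3511, the brightest 72890 and 46539, and the other 55822 and 39199. Rpl21 was the 1 gene with probes on both sides of 0: the brightest gave 0.13, another (191 and 103) also 0.13, and the remaining one (255 and 101) -0.32. So the brightest probe of Rps3 was dimmer on the NYT array before scaling, while the last probe was brighter there.

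Rps24 is known for spliced forms with different ends, and its 4 probes gave 0.11, 0.70, 0.79 and 0.83. The lowest had intensities of 21477 and 11428. A probe for another transcript of Rps27a was well above background on the NYT array alone, at 124 against 16.2 on the control array, which was at least 9.62-fold higher after scaling. A further probe of Rps27a was left out because its control spot was marked as an outlier. The 4 probes of Rps24 were measured on both arrays, and the Rps27a transcript rests on 1 spot of the NYT array.

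Ribosomal protein genes have many processed copies in the genome, and the array shows this in where its probes were placed. Of 163 measured probes that have mm9 coordinates and an accession RefSeq names, 15 were placed on another chromosome than the gene. Their median difference was 0.50, and that of the 148 on the gene's own chromosome 0.60. For Rpl36, Rps27, Rps29 and Rps4x, named here after this was seen, every measured probe was placed elsewhere, counting for Rps4x a probe whose accession RefSeq does not name. The 3 probes of Rpl36, a gene of chromosome 17, lay on chromosomes 5, 11 and X, and the 3 of Rps29, of chromosome 12, on chromosome 2. The 4 probes of Rps27, of chromosome 3, lay on chromosome 9, which is also the chromosome of its retrogene Rps27rt. Whether such probes read the gene, the copy or both cannot be told apart from these arrays.

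How closely repeated readings agreed can be seen from overlapping probes. The first 30 bases of 2 such pairs, picked after their values were known, are shown, with the stretch that both print in capitals; the whole probes of 60 bases share 54 bases in Rpl24 and 52 in Rps27.
Rpl24 (chr16:55971488-55971547): ttggtgGGAAACGCTAGTGTGGTAGAGCAG
Rpl24 (chr11:58322244-58322303): GGAAACGCTAGTGTGGTAGAGCAGagttgg
Rps27 (chr9:114891517-114891576): cactgaaaGCCCCTGATTGAAGATGAGTGG
Rps27 (chr9:114891509-114891568): GCCCCTGATTGAAGATGAGTGGgaaccttc
The Rpl24 probe on the gene's chromosome had intensities of 135153 and 104762, a difference of 0.65. Its shifted twin had 91342 and 64644, a difference of 0.52. The Rps27 probes gave 0.36 and 0.41. Over 22 pairs of member probes that share at least 20 bases, the gap between differences had a median of 0.04 and reached 0.26, in Rpl7a. All 22 gaps were below 0.29, the error model's value for a gap, which is not a spread measured from these probes. The pairs share bases and both arrays, so their agreement does not test that error.

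TOP tracts were looked for at the annotated start of transcription, in RefSeq's promoter sequences of build GRCm38.p6, which held 60 of the 82 members. A tract was a C within 5 bases of the start on either side with at least 4 further bases of C or T right after it, on the gene's own strand. The run of C and T may begin before that C, as with the t ahead of it in Rplp2. It was found in 27 of the 60 members (45.0%) and in 5718 of 27025 genes (21.2%). Those shown run from the lowest to the highest difference among members with a tract and were picked after the values were known. Each window holds the 15 bases before the annotated start and the first 15 bases of exon 1, in the 5′ UTR, 5′ to 3′ on the gene's strand, with the tract in capitals from the first such C.
Rps27 (chr3:90213634-90213663, minus strand): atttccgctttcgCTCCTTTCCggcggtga
Rps6 (chr4:86857353-86857382, minus strand): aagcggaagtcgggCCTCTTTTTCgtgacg
Rpl28 (chr7:4792950-4792979, plus strand): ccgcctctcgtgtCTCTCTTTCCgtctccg
Rpl27a (chr7:109519180-109519209, plus strand): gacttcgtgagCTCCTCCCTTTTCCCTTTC
Rplp2 (chr7:141447636-141447665, plus strand): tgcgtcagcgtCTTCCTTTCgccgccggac
Rpl35 (chr2:39005117-39005146, minus strand): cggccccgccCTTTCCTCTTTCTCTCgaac
Rps15a (chr7:118116133-118116162, minus strand): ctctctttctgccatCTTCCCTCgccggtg
The differences of these genes were 0.36, 0.39, 0.56, 0.64, 0.79, 0.91 and 1.37, in the order printed. That of Rpl28 is from its brightest probe, placed on chromosome 4, while its other probe, on the gene's chromosome 7, gave 0.34. Members with a tract in the window (27 measured) had a median of 0.69, from 0.36 to 1.37, and those without one (31 measured) had 0.65, from -0.70 to 1.03. The groups overlapped. A match describes these letters at an annotated start, and a missing one says only that they are not in this window.

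Ribosomal proteins that the name rule could not match were at the same place as the family. Rack1, the scaffold on the head of the small subunit, had intensities of 170295 and 148951, a difference of 0.82. Fau, which carries a small subunit protein behind a ubiquitin-like domain, had 299637 and 242938, a difference of 0.72. Both lay inside the range of the core members.

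**Figure D5:**
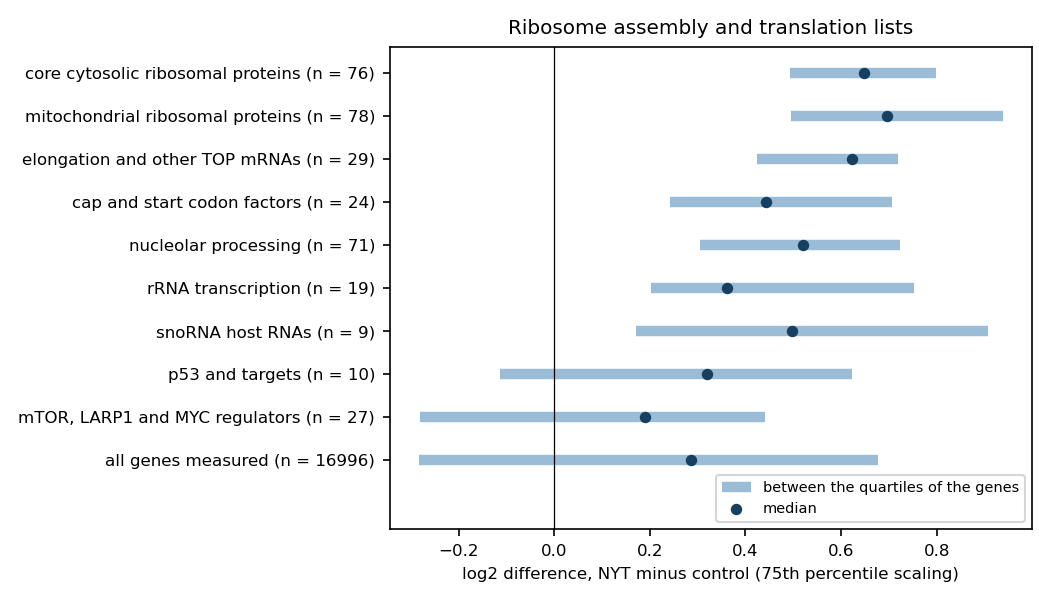
Median log2 difference (NYT minus control, 75th percentile scaling) of gene lists for ribosome assembly and translation, as points, with a bar between the quartiles of each list and n the measured genes. Core ribosomal proteins (0.65), mitochondrial ribosomal proteins (0.70) and elongation and other TOP mRNAs (0.62) lie highest under this scaling, and mTOR, LARP1 and MYC regulators (0.19) lowest; under quantile normalization every list drawn but the regulators lies above the ribosomal proteins.

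Elongation factors and other TOP mRNAs are the genes known to be regulated most like ribosomal proteins. All 29 listed were measured, with a median of 0.62; 3 were at least 2-fold higher on the NYT array, against 11.2% of all genes, and 0 lower, against 11.0%. Those were Vim, an intermediate filament gene of mesenchymal and myeloid cells (intensities of 76571 and 106302, 1.49), the poly(A)-binding protein gene Pabpc4 (1.25) and the helicase gene Eif4a1 (53093 and 60776, 1.21). Eif3d had a difference of 0.88. Eef2, which moves the ribosome along the mRNA and is named here after its value was seen, was at 0.10 (75311 and 39794).

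Against the same shares of all genes, factors for the cap and the start codon had a median of 0.44 over 24 genes, with 1 at least 2-fold higher, Eif2s2 (1.18), and 0 lower. Eif6, which keeps the subunits apart until the large one is mature, was at 0.99, Etf1 at 0.94 and the cap-binding protein gene Eif4e at 0.78. Genes for making ribosomal RNA had a median of 0.36 over 19 genes, with 2 at least 2-fold higher, the polymerase subunit genes Twistnb (1.11) and Polr2l (1.04), and 0 lower. Polr2f (0.91) and Rrn3 (0.84), which brings RNA polymerase I to its promoter, followed. Under 75th percentile scaling both lists thus lay between the ribosomal proteins (0.65) and all genes measured (0.29), but not under quantile normalization, where they were at 0.27 and 0.36 against 0.05 for ribosomal proteins and 0.20 for all genes.

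Nucleolar proteins that process ribosomal RNA and assemble subunits had a median of 0.52 over 71 genes, with 9 at least 2-fold higher and 1 lower, against 11.2% and 11.0% of all genes. The largest differences were in Pno1 (1.61), Rrs1 (1.33), Gnl3l (1.33) and Mrto4 (1.3). Mdn1, a giant ATPase of large subunit assembly, was the 1 gene at least 2-fold lower (-1.01). Host genes of small nucleolar RNAs, which also carry TOP tracts, had a median of 0.50 over 9 genes, led by Snhg6 (1.08), Gas5 (0.94), Snhg12 (0.91) and Zfas1 (0.60). Mitochondrial ribosomal proteins had a median of 0.70 over 78 genes, with 13 at least 2-fold higher (11.2% of all genes) and 0 lower, led by Mrps18b (1.61), Mrps10 (1.39), Mrpl1 (1.19) and Mrpl23 (1.15). Under quantile normalization these 3 lists had medians of 0.47, 0.42 and 0.52, and elongation and other TOP mRNAs 0.25, all above the ribosomal proteins' 0.05. With no scaling the medians of all these lists turned below 0, as did that of the ribosomal proteins.

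Regulators of ribosomal protein mRNAs had a median of 0.19 over 27 genes, and of -0.0055 under quantile normalization, with 0 at least 2-fold higher, against 11.2% of all genes, and 3 lower, against 11.0%. Those were Mycn (intensities of 728 and 24.9, -3.85), the MYC antagonist gene Mxd1 (17798 and 1065, -3.04) and the mTOR inhibitor gene Ddit4 (12751 and 2123, -1.57). The NYT intensity of Mycn was near that of Rpl3l (20.3), which was not well above background there, so the fold of Mycn is imprecise. Larp4 was at 0.87. Myc had a difference of -0.03, Mtor of -0.53, Larp1 of 0.50, Eif4ebp1 of 0.29 and the S6 kinase gene Rps6kb1 of 0.19.

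Several lists of cell type markers had medians well below 0, while those of leukocytes and B cells lay nearer to 0. The labels call the cells bone marrow mononuclear cells, and all 5 leukocyte markers were well above background on both arrays (median 0.32, from -1.15 in Coro1a to 0.91 in Laptm5). The median difference was -0.95 for macrophage genes (8 measured, from -5.21 to 1.18), -3.07 for neutrophil genes (9 measured), -4.41 for megakaryocyte genes (6 measured) and -6.11 for mast cell and basophil genes (4 measured). It was -2.47 for T and NK cell genes (4 measured) and -0.28 for B cell genes (7 measured, from -4.34 in Vpreb3 to 0.36 in Ms4a1). For red cell genes it was -1.58 (4 measured, from -3.86 to 1.3) and for stroma and endothelium -2.70 (5 measured). Summed intensities on the control and NYT arrays were 1063501 and 230373 for neutrophil genes, and 407801 and 22755 for megakaryocyte genes. A further 2 mast cell, 3 T and NK cell and 1 stromal gene were above background on the control array alone. Proliferation genes had a median of -1.29, with 6 of 8 at least 2-fold lower and summed intensities of 55279 and 26042. The part of these markers in the ribosomal protein values was not tested.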

How the data were processed

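The authors deposited the scanner's spot intensity for both arrays. The file headers name Agilent Feature Extraction 10.7.1.1, and the submitters' processing notes 9.5.1.1. Per the file headers, intensities were detrended within the array, spots near background hold surrogates, and nothing was scaled between arrays. The value table deposited by the authors holds linear intensity, with equal quantiles in both columns, and the sources used here do not say how it was made. Groups came from the treatment in the labels, and both arrays lay on 1 slide.

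Outlier spots were left out (258 and 165 of 43020), and log2 processed intensities were averaged over a probe's spots and scaled to each array's 75th percentile (R 4.3.3, limma 3.58.1, Python 3.11.15). A probe was measured if more than 50% of its spots were well above background on both arrays. A gene took its brightest measured probe by mean over both arrays. A gene seen on 1 array was given a bound against the lowest signal well above background, or its own if higher. Counts use 2-fold and 1.5-fold differences, which describe 2 arrays; 1 array a group allows no test and limits the precision. The counting step was tested on simulated data with 1 probe a gene and the noise of repeated spots only. Neither the choice of probe nor variation between cultures or labellings was covered.

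Probes were matched by accession to RefSeq genes (GRCm38.p6) for names and chromosomes, which named 171 of 185 member probes; probe coordinates are mm9, per the file headers. The members and lists were chosen with earlier results of these data known. Named members are those past 2-fold, the 5 highest and 5 lowest core members of each subunit, copies, genes not measured on both arrays, genes whose probes differ in sign or by over 1, and a list by role; up to 4 genes with the largest difference were named in each other list. Some genes that this rule took are left out of the text. Alternatives were quantile, median, spike-in, loess and no scaling, normexp (offset 50), the authors' table, no filter on dim probes, another detection flag, the mean over probes, a 1.5-fold threshold, core members alone and probes named by accession; the faintest probe of each gene and probes on the gene's own chromosome were added after seeing the data.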

Additional observations from a re-analysis of the deposited data

How the results depend on the processing

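Scaling decided the sign of the family's median. It was 0.047 under quantile normalization, 0.055 after loess and 0.046 in the authors' value table, -0.37 with no scaling and -0.53 with spike-in scaling; the median over 8 of 10 spike-ins was 0.16, but single spike-ins ran from -0.12 to 2.25. In the same settings the large subunit median was 0.028, 0.052, 0.025, -0.37 and -0.53, and the small subunit median 0.059, 0.063, 0.060, -0.36 and -0.52. Over all genes the median was -0.73 with no scaling, -0.89 with the spike-ins and -0.015 with loess. The family's median minus that of all genes was -0.15 under quantile normalization and in the authors' table, 0.070 after loess, 0.25 with normexp, 0.15 with no filter on dim probes and 0.23 with the faintest probe of each gene, which gave medians of 0.53 for the family and 0.47 for the large subunit. The count at least 2-fold higher was 0 under quantile normalization, loess, no scaling, spike-in scaling and the authors' table, 2 with normexp and 47 at 1.5-fold. The count lower was 1 with no scaling, 2 with spike-in scaling and 1 at 1.5-fold. Core members alone, accession-named probes, probes on the gene's own chromosome, median scaling, the mean over probes and the other detection flag left the family's median within the spread over members.

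Of the 76 core members, 75 were below 0 with spike-in scaling, 73 with no scaling, 31 after loess and 28 under quantile normalization. Among the genes named, with spike-in scaling Rpl36al was at -0.15, Rpl38 at -0.11 and Rplp1 at -0.11. Other values of named genes numbered 252 that stayed within, and 218 that moved beyond, the spread used for them. With no scaling and with spike-in scaling, the list medians were -0.40 and -0.56 for elongation and other TOP mRNAs, -0.57 and -0.74 for cap and start codon factors, -0.66 and -0.82 for ribosomal RNA transcription, -0.50 and -0.66 for nucleolar processing, -0.52 and -0.68 for small nucleolar RNA hosts, and -0.32 and -0.48 for mitochondrial ribosomal proteins. A constant scaling shifts every gene alike by construction; the cause of the other changes was not tested. No paired analysis was possible because there was 1 array a group, which also kept any array from being left out. No spot was saturated, and dim genes such as Rpl3l and Rpl10l were limited by background.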
